A study of Homo sapiens with 18 samples.

Results

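The ID genes (ID1, ID2, ID3 and ID4) encode inhibitors of differentiation. Their Ser5-phosphorylated RNA polymerase II (Ser5 Pol II) signal was examined by ChIP-seq in Rh30 cells, an alveolar rhabdomyosarcoma line that carries the fusion transcription factor PAX3-FOXO1. Regions were taken by position, as all those overlapping an hg19 window at each gene: chr20:30192000-30195400 for ID1, chr2:8821000-8825700 for ID2, chr1:23882500-23887400 for ID3 and chr6:19836500-19843500 for ID4. The windows held 4 of the 12123 measured regions, with 1 at ID1, 1 at ID2, 2 at ID3 and 0 at ID4. They were chosen by position within the regions the authors had placed, in a table of Ser5 Pol II signal, so the presence of a region and its level are given as a description.

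ID proteins have a helix-loop-helix domain and no basic DNA-binding stretch. They pair with E proteins, the usual partners of tissue-specific basic helix-loop-helix factors, and the pairs cannot bind DNA. In muscle precursors this keeps MYOD1 and related myogenic factors from forming active pairs with E proteins, and the ID genes are classic early targets of BMP signalling through SMAD proteins. Ser5 phosphorylation of the polymerase tail marks Pol II mostly near transcription start sites.

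Cells were given 500 nM dTAG47 for 2 h, 500 nM dTAG47 for 4 h, or DMSO, the solvent, with 2 libraries per group and 6 in all. All 3 groups carry the FKBP tag on PAX3-FOXO1, through which dTAG47 directs the fusion protein to degradation, so DMSO cells are tagged cells as well. The labels give no time for DMSO, so neither the 2 h nor the 4 h group has a control known to be matched in time. They also do not say whether the cells are 1 clone, nor whether paired libraries stem from different cultures. P-values here thus reflect library-to-library spread alone, which could be technical. The fit draws that spread mostly from all regions together (prior degrees of freedom 43.6), and only in small part from the libraries of the region tested. Loss of the fusion protein cannot be read from these counts, and no check of the cell line against marker genes was planned or run. Total counts over the regions were 1343568 to 1445058 at 2 h, 962251 to 1585579 at 4 h and 1430934 to 1792013 in DMSO. The 3 regions with the highest counts in the table took 2.61% and 3.21% of counts at 2 h, 2.61% and 4.17% at 4 h, and 1.77% and 2.61% in DMSO.

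The 250 bases before each RefSeq gene start are shown so that the 3 genes with a Ser5 region can be set beside ID4, which had none. They are from RefSeq on GRCh38.p14, a different build from that of the counts, and each of the 4 genes matched 1 entry. They lie at chr20:31605039-31605288 on the plus strand for ID1, chr2:8681806-8682055 on the plus strand for ID2, chr1:23559502-23559751 on the minus strand for ID3 and chr6:19837120-19837369 on the plus strand for ID4. Capitals mark every match, on either strand, to 7 motifs that were searched. These were TATAAA for the TATA box, CCAAT for the box of that name, CANNTG for the E-box bound by basic helix-loop-helix pairs, TGACG for the core of a cyclic AMP response element, GGCGCC for a GC-rich SMAD-type site, CAGACA for the SMAD box and GTAAACA for forkhead factors.
ID1: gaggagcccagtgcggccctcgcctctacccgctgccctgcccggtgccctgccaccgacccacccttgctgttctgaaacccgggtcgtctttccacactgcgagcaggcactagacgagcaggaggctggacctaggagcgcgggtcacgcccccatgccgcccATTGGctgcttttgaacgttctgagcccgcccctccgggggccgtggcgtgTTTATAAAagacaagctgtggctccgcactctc
ID2: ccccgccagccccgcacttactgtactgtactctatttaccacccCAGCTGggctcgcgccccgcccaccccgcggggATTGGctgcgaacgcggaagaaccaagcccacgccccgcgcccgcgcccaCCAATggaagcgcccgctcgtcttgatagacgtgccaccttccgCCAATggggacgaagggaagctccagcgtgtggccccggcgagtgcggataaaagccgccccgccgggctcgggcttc
ID3: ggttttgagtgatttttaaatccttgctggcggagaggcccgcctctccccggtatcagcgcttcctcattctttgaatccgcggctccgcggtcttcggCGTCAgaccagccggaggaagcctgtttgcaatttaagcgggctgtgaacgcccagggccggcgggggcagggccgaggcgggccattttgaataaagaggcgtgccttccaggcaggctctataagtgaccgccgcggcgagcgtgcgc
ID4: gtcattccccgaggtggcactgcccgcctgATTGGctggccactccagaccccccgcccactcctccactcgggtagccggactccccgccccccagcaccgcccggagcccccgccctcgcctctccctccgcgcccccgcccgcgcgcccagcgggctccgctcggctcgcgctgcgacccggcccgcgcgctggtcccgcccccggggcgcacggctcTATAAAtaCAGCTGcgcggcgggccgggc

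TATAAA was found at ID1, where it begins at -31 and overlaps a match on the opposite strand that begins at -33, and at ID4, where it begins at -29. This motif is present in 10.7% of the 35116 promoters in the table. CCAAT occurred once at ID1, 3 times at ID2 and once at ID4, against 32.0% of promoters with a match. An E-box lay in the ID2 and the ID4 stretch, and 61.8% of promoters hold one. ID3 had a single capitalised match, the TGACG match, which 21.2% of promoters hold. The GC-rich SMAD-type motif, the SMAD box and the forkhead motif had 0 matches in these stretches, and 16.4%, 13.6% and 2.98% of promoters hold them, in that order. The stretches were 66.0% G and C at ID1, 69.2% at ID2, 62.0% at ID3 and 78.8% at ID4, against a median of 58.0%. A match, or the lack of one, is only a description of the letters in these 250 bases. Sequence farther from the gene start was not searched, so sites there would not be seen. The promoter windows of the long noncoding RNAs LOC105372588 and ID2-AS1 overlap those of ID1 and ID2 in the RefSeq table, the gene LOC124903876 overlaps ID3 itself, and the ChIP counts carry no strand, so signal of such neighbours cannot be told apart from that of the ID genes.

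The windows differ in the regions around them. The ID1 region spans 30192998 to 30193398 on chromosome 20, and the nearest regions outside the window lie 30.8 kb below and 54.1 kb above its edges. The ID2 region spans 8822036 to 8822436 on chromosome 2, with the nearest others 1763 kb below and 152 kb above. The ID3 window on chromosome 1 holds a region at 23883243 to 23883643, called the lower-position region here, and another at 23885159 to 23885559, called the higher-position region. Their starts are 1916 bases apart, while the RefSeq gene is 1576 bases long. ID3 lies on the minus strand in RefSeq, so the higher-position region is the one toward the side of the gene start. Where each region lies within or beside the gene was not determined, since no hg19 annotation was used. They share a locus and are not independent. ID4 had no region in its window, and the nearest regions on chromosome 6 lay 1572 kb below and 559 kb above it. The table does not give counts for places without a region, so no level can be given for ID4. The lowest mean count of any region in the table was 12.2.

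At 2 h of dTAG47 against DMSO, Ser5 Pol II rose at all 4 ID regions, by 1.68-fold to 2.19-fold. ID1, the member that rose most, encodes a widely expressed ID protein that can hold back myogenic factors. Values are CPM, counts scaled to a common library size with TMM factors, and each SD is over n = 2 libraries. They average over the cells of a culture, so more cells with signal and more signal per cell cannot be told apart.

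ID1 had 342 and 333 CPM at 2 h, against 141 and 168 CPM in DMSO, from 490 and 438 counts at 2 h against 261 and 245 counts in DMSO. Both 2 h libraries were about level with each other and far above both DMSO libraries. The mean was 338 ± 6.51 CPM at 2 h and 154 ± 18.9 CPM in DMSO, a log2 fold change of 1.13 with a standard error of 0.15 (edgeR quasi-likelihood test, adjusted p = 6.58e-07). Among all regions this was the rise at rank 22.

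ID2, whose product also pairs with E proteins, had 166 and 162 CPM at 2 h, against 96.1 and 75.3 CPM in DMSO. The 2 h libraries lay close together and did not overlap with DMSO. The mean was 164 ± 3.02 CPM at 2 h and 85.7 ± 14.7 CPM in DMSO, a log2 fold change of 0.93 with a standard error of 0.15 (edgeR adjusted p = 7.86e-05). This rise had rank 55 among all regions.

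At ID3, another broadly expressed member that often accompanies ID1, the higher-position region had 272 and 285 CPM at 2 h, against 152 and 181 CPM in DMSO. The lower-position region had 235 and 214 CPM at 2 h, against 106 and 159 CPM in DMSO. In neither region did the groups overlap, and the DMSO libraries of the lower-position region stood farthest apart. The log2 fold change was 0.74 in the higher-position region (SE 0.15, edgeR adjusted p = 0.0013) and 0.77 in the lower-position region (SE 0.15, edgeR adjusted p = 0.00138). Without DMSO library A, the lower-position region had a log2 fold change of 0.50 and missed the threshold (edgeR adjusted p = 0.139).

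**Figure D1:**
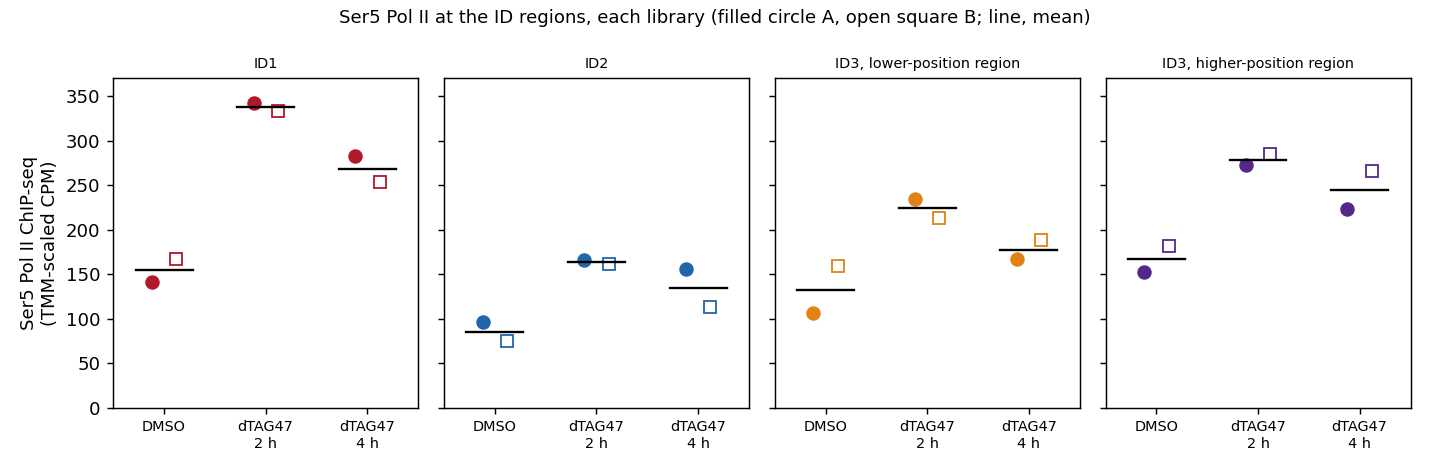
Ser5 Pol II signal in TMM-scaled CPM on the vertical axis for each of the 4 ID regions, by group on the horizontal axis. Filled circles are libraries A, open squares libraries B and lines the means of 2. Both libraries at 2 h and both at 4 h lie above both DMSO libraries in each region, and the highest mean, 338 CPM, is that of ID1 at 2 h.

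Of the 4 ID regions 4 were called higher and 0 lower at 2 h, under a Benjamini-Hochberg adjusted p of 0.05 over all regions. Of all regions 2.22% were called higher and 0.396% lower. In 4 of 4 ID regions both 2 h libraries lay above both DMSO libraries, an arrangement found in 21.9% of all regions. The median log2 fold change was 0.85 over the 4 ID regions and -0.01 over all regions. A fit that also adjusted for each library's percentage in the 3 highest regions, a choice made with the data seen, called 4 of 4, with log2 fold changes of 1.16 at ID1, 1.14 at ID2, 0.61 in the higher-position and 0.65 in the lower-position region of ID3. The genes were chosen with these counts already known, so these counts and p-values describe the regions and nothing is read from the background.

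At 4 h of dTAG47 against the same DMSO libraries, 3 of the 4 ID regions were higher in the test and 0 were lower, with 1.52% of all regions called higher and 0.487% lower. ID1, ID2 and the higher-position region of ID3 rose, by 1.75-fold, 1.59-fold and 1.46-fold. In 4 of 4 ID regions both 4 h libraries lay above both DMSO libraries, against 20.2% of all regions. The median log2 fold change was 0.61 over the ID regions and -0.01 over all regions. The 2 comparisons share their DMSO libraries, so their results are not independent of each other. Here too the genes were chosen with these data known, and the ID3 regions share a locus, so nothing is read from the background.

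ID1 had 283 and 254 CPM at 4 h, against the DMSO values of 141 and 168 CPM. The groups stood well apart, with a mean of 268 ± 20.8 CPM at 4 h and 154 ± 18.9 CPM in DMSO. The log2 fold change was 0.81 with a standard error of 0.15 (edgeR adjusted p = 0.000698). ID1 passed the threshold in each of the 16 alternatives run at 4 h, and in each of the 16 at 2 h.

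ID2 had 156 and 113 CPM at 4 h, against 96.1 and 75.3 CPM in DMSO. The 4 h libraries were wide apart, and the lower of them was library B, which had the fewest counts over all regions of the 6 libraries. At both ID3 regions library B was the higher of the 4 h libraries, with 266 against 223 CPM and 189 against 167 CPM. The log2 fold change was 0.67 with a standard error of 0.16 (edgeR adjusted p = 0.0125). It was 0.39 without 4 h library A (edgeR adjusted p = 0.427) and 0.53 without DMSO library B (edgeR adjusted p = 0.0808), and DESeq2 gave 0.66 (adjusted p = 0.221).

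The higher-position region of ID3 had 223 and 266 CPM at 4 h, against 152 and 181 CPM in DMSO, a log2 fold change of 0.55 with a standard error of 0.15 (edgeR adjusted p = 0.0409). This call was close to the threshold and was lost in 6 of 16 alternatives, with log2 fold changes over the 16 of 0.33 to 0.69. The 6 were total count scaling (0.49, adjusted p = 0.0948), DESeq2 (0.55, adjusted p = 0.212), a covariate for the percentage of counts in the 3 highest regions (0.33, adjusted p = 0.256), and edgeR without DMSO library A (0.42, adjusted p = 0.333), without 2 h library A (0.55, adjusted p = 0.0529) or without 4 h library B (0.43, adjusted p = 0.354).

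The lower-position region of ID3 had 167 and 189 CPM at 4 h, against 106 and 159 CPM in DMSO. Its groups did not overlap, but by a small margin. Its log2 fold change of 0.43 had a standard error of 0.16, a 95% interval of 0.11 to 0.75 and an edgeR adjusted p of 0.191. It passed the threshold in 2 of 16 alternatives. Without DMSO library B, the higher of the DMSO libraries, the value was 0.74 (edgeR adjusted p = 0.00423). Without DMSO library A it was 0.15 (edgeR adjusted p = 0.825).

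**Figure D2:**
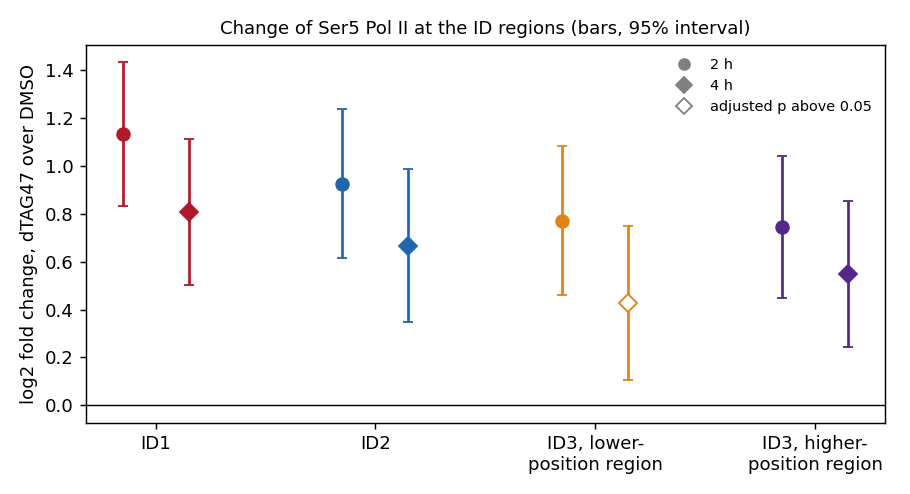
Log2 fold change of Ser5 Pol II, dTAG47 over DMSO, for each ID region on the horizontal axis, at 2 h (circles) and 4 h (diamonds). Bars are 95% intervals from the edgeR fit, and the open symbol, the lower-position region of ID3 at 4 h with a value of 0.43, has an adjusted p above 0.05.

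With the counts of both ID3 regions summed, ID3 had 507 and 499 CPM at 2 h, against 259 and 340 CPM in DMSO, a log2 fold change of 0.75 (SE 0.16, edgeR adjusted p = 0.00259). The sum lost this call without DMSO library A, where the log2 fold change was 0.56 (edgeR adjusted p = 0.12), and without 2 h library A, where it was 0.74 (edgeR adjusted p = 0.0538). At 4 h the sum had 390 and 455 CPM, against 259 and 340 CPM in DMSO, a log2 fold change of 0.50 (SE 0.16, edgeR adjusted p = 0.101). The summed ID3 signal therefore did not pass the threshold at 4 h, while the higher-position region alone did. It passed in 3 of 16 alternatives, among them limma-voom (0.51, adjusted p = 0.0378) and edgeR without DMSO library B (0.71, adjusted p = 0.0129). The value was 0.31 without DMSO library A (edgeR adjusted p = 0.594) and 0.28 with the percentage in the 3 highest regions adjusted for (edgeR adjusted p = 0.281). The higher-position region had more counts than the lower-position region in all 6 libraries. The ratio of higher-position to lower-position counts was 1.16 and 1.33 at 2 h, 1.34 and 1.41 at 4 h, and 1.43 and 1.14 in DMSO. These ranges overlap between the groups.

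Set directly against each other, 4 h was below 2 h at all 4 ID regions in CPM, and the libraries did not overlap, but no difference passed the threshold. The arrangement, with both 4 h libraries below both 2 h libraries, was found in 16.4% of all regions. With the genes chosen on known data, nothing is read from that share. The log2 fold change of 4 h over 2 h was -0.33 at ID1 (95% interval -0.62 to -0.03, unadjusted p = 0.0299) and -0.26 at ID2 (-0.56 to 0.04, unadjusted p = 0.0922) in edgeR. At ID3 it was -0.34 in the lower-position region (-0.66 to -0.03, unadjusted p = 0.0313) and -0.20 in the higher-position region (-0.49 to 0.10, unadjusted p = 0.188) in edgeR. The adjusted p was 0.998 for each of the 4. Those of ID2 and the higher-position region of ID3 moved most with single 4 h libraries: without 4 h library A they were -0.54 at ID2 and -0.06 in the higher-position region of ID3, and without 4 h library B -0.07 and -0.32 in that order. Of all 12123 regions edgeR called 0 higher and 0 lower, or 0%, with 145 higher and 251 lower at an unadjusted p of 0.05, and DESeq2 and limma-voom also called 0. A p above the threshold does not show that both times are equal.

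The order of the levels is given per region, as a description. Each region spans 400 bases, but where it lies in its gene was not determined. With both ID3 regions summed, ID3 was above ID1 in every library, with 507 and 499 CPM against 342 and 333 CPM at 2 h. At 2 h the order was ID1 with 338 ± 6.51 CPM, the higher-position region of ID3 with 279 ± 9.00 CPM, the lower-position region of ID3 with 224 ± 14.9 CPM and ID2 with 164 ± 3.02 CPM, and no neighbours in this order overlapped. At 4 h it was the same order, with 268 ± 20.8, 245 ± 30.6, 178 ± 15.3 and 134 ± 30.2 CPM, and the libraries of ID1 and the higher-position region of ID3 overlapped. In DMSO the higher-position region of ID3 came first with 167 ± 20.6 CPM, before ID1 with 154 ± 18.9, the lower-position region of ID3 with 133 ± 37.0 and ID2 with 85.7 ± 14.7 CPM. The first 3 overlapped in DMSO, and both ID2 libraries were below the others. By level, ID1 stood above 98.7% of all regions at 2 h, 98.0% at 4 h and 93.1% in DMSO. ID2 stood above 93.0% at 2 h, 89.5% at 4 h and 70.4% in DMSO.

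Shares were also taken of each library's raw counts summed over the 12123 regions, not of all its reads, with no TMM factor. The 4 ID regions together held 0.101% and 0.0973% at 2 h, 0.0829% and 0.0801% at 4 h, and 0.0512% and 0.0595% in DMSO. The 2 h shares were the highest and the DMSO shares the lowest, with no overlap. Within this total, ID1 took 33.7% and 33.5% of the ID counts at 2 h, 34.1% and 30.9% at 4 h, and 28.4% and 28.8% in DMSO. The ID1 share of the ID counts was lowest in both DMSO libraries. ID3 took 49.9% and 50.2% at 2 h, 47.1% and 55.4% at 4 h, and 52.2% and 58.3% in DMSO, where the ranges at 4 h and in DMSO overlap.

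**Figure D3:**
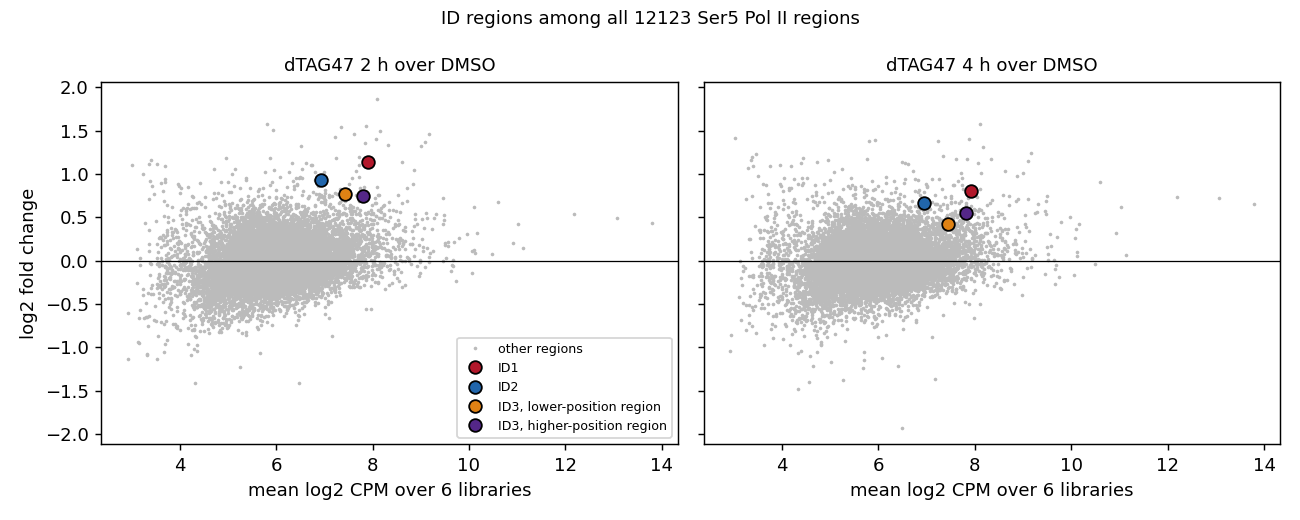
Log2 fold change of dTAG47 over DMSO against mean log2 CPM over 6 libraries for all 12123 regions (grey), at 2 h on the left and 4 h on the right, with the 4 ID regions coloured. ID1, at 1.13 and 0.81, is the highest of the 4 in both panels, and all 4 lie above 0.

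Few other regions lay close to the ID windows. Within 100 kb there were 3 regions around ID1, 4 around ID3, 0 around ID2 and 0 around ID4, and 0 of these 7 were called at 2 h or at 4 h. With 2.22% of all regions called higher and 0.396% lower at 2 h, and 1.52% and 0.487% at 4 h, a count of 0 among 7 is near the background and is no result about these regions. Around ID1 their log2 fold changes ran from -0.25 to 0.49 at 2 h and from -0.24 to 0.44 at 4 h. Around ID3 they ran from -0.27 to 0.37 at 2 h and from -0.36 to 0.36 at 4 h. The closest of them, 7.35 kb above the ID3 window, had 47.3 CPM at 2 h and 57.4 CPM in DMSO, with a log2 fold change of -0.27 (SE 0.18, edgeR adjusted p = 0.549). In the RefSeq order of GRCh38, the coding neighbours are HM13 and COX4I2 for ID1, RNF144A and KIDINS220 for ID2, E2F2 and RPL11 for ID3, and RNF144B and MBOAT1 for ID4. Which of these genes the nearby regions belong to was not determined.

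**Figure D4:**
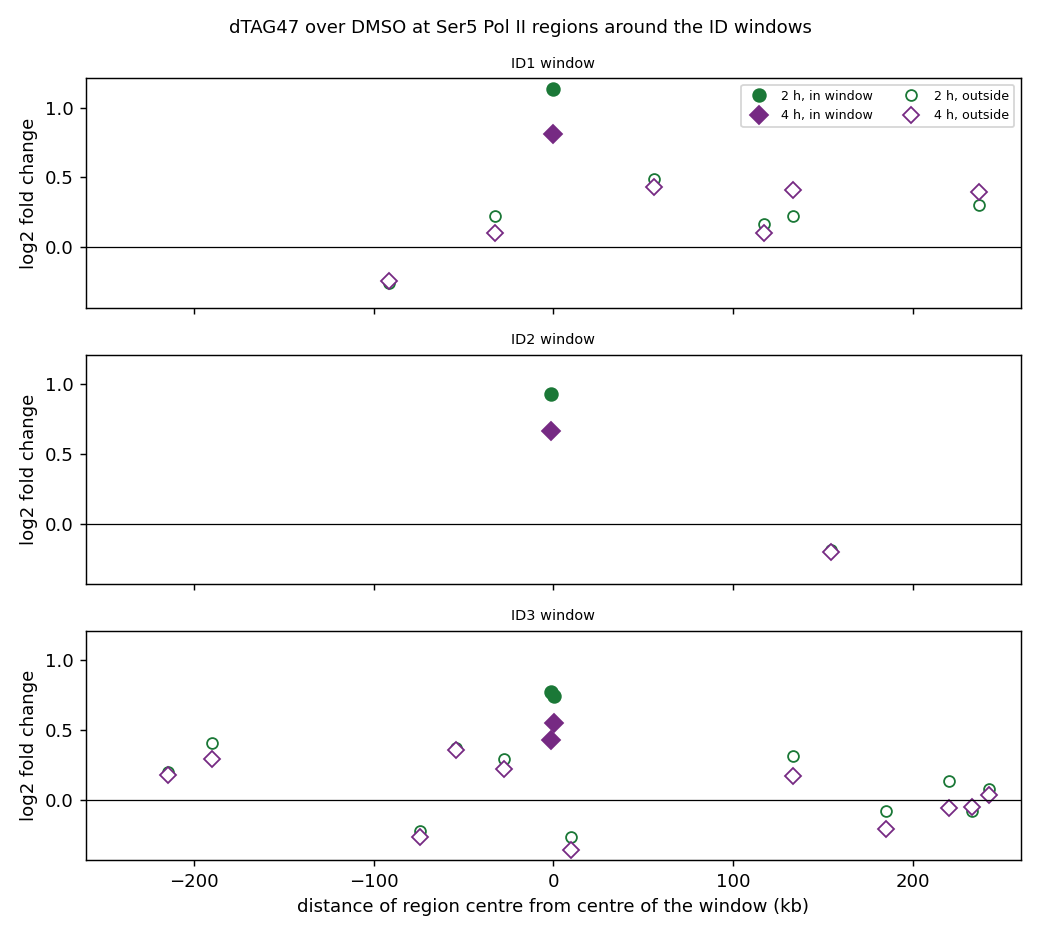
Log2 fold change of dTAG47 over DMSO for regions within 250 kb of the ID1, ID2 and ID3 windows, against the distance in kb of the region's centre from the centre of the window. Filled symbols are regions in the window and open symbols regions outside it, at 2 h (circles) and 4 h (diamonds). The filled symbols at 2 h, from 0.74 to 1.13, lie above all open ones, of which the highest is 0.49. The ID genes were chosen with these data known and the regions outside were not, so this order is only a description. At 4 h the lower-position region of ID3, at 0.43, lies just below a region outside the ID1 window, at 0.44.

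The pattern over the 6 libraries was compared between regions as the Euclidean distance of log2 CPM, each region centred on its own mean, among the 11997 regions whose mean count was 20 or more. Small distances mean a like rise and fall. For ID1 the closest regions were chr3:112359695-112360095 (distance 0.135), chr17:56736365-56736765 (0.144) and chr2:121832563-121832963 (0.224). For ID2 they were chr1:182573224-182573624 (0.224), chr19:2475973-2476373 (0.291) and chr17:41438303-41438703 (0.317). For the higher-position region of ID3 they were chr1:40041958-40042358 (0.0922), chr6:111195914-111196314 (0.134) and chr10:99193220-99193620 (0.165). No ID region was among the 3 closest listed for these regions. The ID3 regions were 0.313 apart. Distances between regions of different ID genes ran from 0.496 to 0.827, the largest between ID2 and the lower-position region of ID3. Among the 11997, the lower-position region of ID3 had the higher-position region at rank 9, ID1 at 275 and ID2 at 2801. ID2 had ID1 at rank 104, and the higher-position region had ID1 at 579 and ID2 at 2246. The genes were chosen with these data known, so the ranks are a description.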

How the data were processed

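The table holds raw read counts for 12123 regions in 6 libraries, deposited by the authors as whole numbers. Tools in the submitters' processing notes are DESeq2, DiffBind, MACS2, Bowtie2 and Trimmomatic 0.32, with the builds hg19 and, for fly, dm3. Not given in the sources used here is how the regions and their counts were made, or whether positions start from 0 or 1. No fly counts or whole-library totals were used, so a change of all regions by 1 factor would not be seen.

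Columns carry a letter, A or B, which was not tied to the replicate numbers of the labels. Counts were fitted with edgeR 4.0.16 in R 4.3.3 (TMM factors, quasi-likelihood test, all 6 libraries, Benjamini-Hochberg over all regions, called under 0.05). The filter filterByExpr removed 0 regions. The standard error is the log2 fold change divided by the square root of F. In each group the libraries differed beyond sampling noise (chi-square 1.50 to 2.33 times its degrees of freedom). Each library was fitted as 1 replicate, but this difference does not show that the libraries stem from different cultures. Alternatives used DESeq2 1.42.0 and limma 3.58.1, and promoters were searched in Python 3.11.15. All ID regions are named, and for the region with most counts at each gene the 3 regions of most similar pattern. The ID genes and lists were chosen with earlier results of these data known. Planned lists of E proteins, BMP signalling, myogenic and HES or HEY genes, and protein sequences, were not run: no hg19 annotation or protein table was used here. The 12 samples of other antibodies were not analysed here.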

Additional observations from a re-analysis of the deposited data

How the results depend on the processing

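No log2 fold change of an ID region or of the ID3 sum changed sign in the 16 alternatives, and of 224 values 207 kept their side of the threshold, 12 lost a call and 5 gained one. At 4 h DESeq2 called 1 of the 4 ID regions and 1 of the 3 summed ID windows (ID1 each time), against 3 and 2 in edgeR, and the cause was not tested. Leaving out 1 library gave 3 to 4 regions called higher at 2 h and 2 to 3 at 4 h, with 2 to 3 and 1 to 2 for the summed windows, and the lone library of a group was assumed to vary like the others. The call that ended at 2 h was that of the lower-position ID3 region, without DMSO library A. Of the 6 libraries, only leaving out 4 h library A left a single summed window, ID1, called at 4 h. The column letter is no stated pairing. Differences between libraries A and B correlated across regions between groups with r of 0.218 (2 h and DMSO), 0.278 (4 h and DMSO) and 0.157 (4 h and 2 h). A replicate block by letter called 4 regions at 2 h, 4 at 4 h and 0 between the times, adding the lower-position ID3 region at 4 h (0.44, adjusted p = 0.00827), and 3 and 3 summed windows, adding the ID3 sum at 4 h (0.50, adjusted p = 8.56e-05). The number of all regions called higher ran from 96 with DESeq2 to 629 with the block at 2 h, against 269, and from 52 to 540 at 4 h, against 184. Total count scaling gave 166 higher and 87 lower at 2 h, against 269 and 48, and 120 and 83 at 4 h, against 184 and 59. The covariate for the 3 highest regions was added after the data had been seen. Omitting the filter changed nothing, since it removed 0 regions, so its values kept their side of the threshold by construction. The values of 4 h against 2 h also kept theirs in 16 of 16 alternatives for each ID region, where the main fit called 0 of all regions. Both kinds count among the 207 and say little about how firm the calls are. Windows widened by 10 kb held 5 regions in place of 4, and 3 and 18 regions lay within 50 kb and 250 kb in place of 7, with 0 called.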
